A study of Rattus norvegicus with 2 samples.

Results

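Mural cells, the pericytes and smooth muscle cells that wrap brain blood vessels, were examined in single-cell RNA-seq libraries of the female rat hypothalamus. A droplet barcode was taken as mural when it held at least 200 detected genes and at most 30% of its unique molecular identifiers (UMIs, each standing for a captured transcript) in mitochondrial genes, at least 3 of the 7 marker genes *Kcnj8*, *Rgs5*, *Abcc9*, *Vtn*, *Pdgfrb*, *Higd1b* and *Myh11*, and fewer than 2 of the 6 markers of other cell types, *Cldn5*, *Slco1a4*, *Snap25*, *Mog*, *Csf1r* and *Lum*. By this rule, 33 of 3928 kept barcodes were mural in Control and 33 of 3919 in SC300, a share of 0.840% (exact 95% Clopper-Pearson interval 0.579 to 1.18) and 0.842% (0.580 to 1.18). The markers chose the members, so their levels are given as a description. The label covers pericytes and smooth muscle, but 31 of 33 Control barcodes and 23 of 33 SC300 barcodes held no UMI of the smooth muscle genes *Acta2* and *Myh11*, of which there were 2 and 173 UMIs in all.

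The study asked whether estrogen released slowly in newborn females leaves them permanently infertile, and hypothalamic cells were profiled at PND 29 (postnatal day 29, 4 weeks of age). Control rats were Sprague Dawley females that the methods describe as carrying a silicone capsule with oil, while the sample title calls them intact. SC300 rats were Sprague Dawley females implanted under the skin at PND 0.5 with estradiol benzoate (EB, 300 µg in silicone). Tissue holding the anteroventral periventricular and arcuate regions was pooled from 3 rats per group and dissociated with collagenase, and each pool gave 1 droplet library (10x Genomics 3′ chemistry). With 1 library per group there is no replicate, so no test between Control and SC300 was possible, no p-value is given, and every interval covers counting error only. The libraries held 52004789 UMIs over 4488 barcodes in Control and 57013099 UMIs over 4524 barcodes in SC300, and the kept barcodes had a median of 8455.5 and 8555 UMIs. The libraries shared 9 barcode sequences, of which 0 were among the mural barcodes.

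Pericytes sit within the basement membrane of capillaries, in contact with the endothelium, and take part in vessel stability, the blood-brain barrier and capillary tone. They are recruited by platelet-derived growth factor signaling through the receptor encoded by *Pdgfrb*, and in brain they carry an ATP-sensitive potassium channel built from the pore subunit *Kcnj8* and the sulfonylurea receptor *Abcc9*. Smooth muscle cells surround arteries, arterioles and veins and carry the contractile apparatus, which includes smooth muscle actin (*Acta2*), smooth muscle myosin heavy chain (*Myh11*) and transgelin (*Tagln*).

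The mural barcodes were not alike. Most were shallow and rich in mural transcripts: 24 Control and 25 SC300 barcodes had at least 80 marker UMIs per 10000 UMIs, with a median of 177 and 168 per 10000 and a range of 89.8 to 294 and 85.7 to 320. These marker-rich barcodes had a median of 3128 and 3617 UMIs and ranged from 557 to 7591 and from 653 to 8288 UMIs. In 18 of the 24 and 19 of the 25, at least 6 of the 7 markers were detected, and 16 and 21 had no UMI of the 6 markers of other types that the rule used. The limit of 80 was set after the values were seen, and it uses the same markers as the rule.

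The remaining 9 Control and 8 SC300 barcodes had few mural transcripts for their depth, with at most 64.6 and 43.2 marker UMIs per 10000. Endothelial genes led the marker lists of other types in 5 of these Control and 3 of these SC300 barcodes, astrocyte genes in 3 and 2, neuronal genes in 1 and 2, and oligodendrocyte genes in 0 and 1. The deepest of them outweighed all other members: 3 Control and 4 SC300 barcodes with over 20000 UMIs held 58.0% and 71.9% of all mural UMIs, while each held only 3 to 28 and 3 to 6 marker UMIs. Marker-rich barcodes held only 31.8% and 19.4% of the summed UMIs, and the levels below are given for them first.

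**Figure D1:**
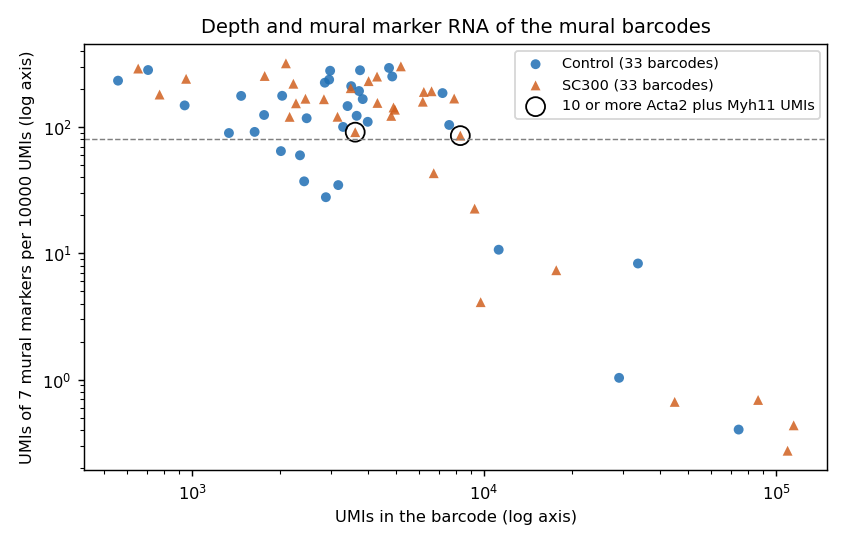
Each point is a mural barcode of Control or SC300, with its total UMIs on the x axis and its marker UMIs per 10000 UMIs on the y axis. The barcodes above the line at 80 per 10000 all held fewer than 10000 UMIs, and those with over 20000 UMIs lay far below it. Both axes are on a log scale, and circles mark the 2 barcodes with 10 or more *Acta2* plus *Myh11* UMIs.

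The rule used thresholds, and barcodes on either side of them are described without a test. Among kept barcodes with fewer than 2 markers of other types, 47 Control and 45 SC300 barcodes had exactly 2 mural markers and were left out, whereas 4 and 5 had exactly 3 and were included. A further 4 and 1 barcodes had 4 markers, 7 and 7 had 5, 18 and 18 had 6, and 0 and 2 had all 7. Members with exactly 3 markers had a median of 15667.5 UMIs in Control and 86805 UMIs in SC300, and those left out with exactly 2 had 15877 and 9584. Scrublet called 1 member a doublet in each library, against 68 of all kept barcodes in each.

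The rule genes that code for the potassium channel and the pericyte regulators are described first, in the marker-rich barcodes. The same genes set the limit for these barcodes in both libraries, so nothing is read from how alike or unlike their levels were. Levels are given as CPM, the UMIs of a gene per 1000000 UMIs summed over the barcodes of a library, and comparisons as the log2 fold of SC300 over Control with the exact 95% conditional binomial interval in parentheses. *Kcnj8*, the channel pore, was at 1848 CPM (Control) and 1937 CPM (SC300), a log2 fold of 0.07 (−0.26 to 0.39), and was detected in 20 of 24 Control and 22 of 25 SC300 barcodes. Single barcodes held 0, 4 and 20 UMIs per barcode in Control (lowest, median and highest) and 0, 7 and 28 in SC300, so the barcodes of the libraries overlapped across nearly the whole range. *Abcc9*, its regulatory subunit, was at 2779 and 3051 CPM with a log2 fold of 0.13 (−0.13 to 0.40). *Rgs5*, an inhibitor of G protein signaling used as a pericyte marker, was at 2487 and 2655 CPM, a log2 fold of 0.09 (−0.18 to 0.37).

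*Pdgfrb*, the receptor for platelet-derived growth factor B, had a log2 fold of 0.21 (−0.10 to 0.53) from 142 and 210 UMIs and was detected in 21 of 24 Control and 25 of 25 SC300 barcodes. *Higd1b*, a hypoxia-inducible domain family gene, had a log2 fold of −0.22 (−0.49 to 0.06). *Vtn*, which encodes the matrix glycoprotein vitronectin, was at 6369.8 CPM (Control) and 4446 CPM (SC300), a log2 fold of −0.52 (−0.71 to −0.33). Its barcodes held 2, 22 and 47 UMIs per barcode in Control (lowest, median and highest) and 1, 14 and 37 in SC300, and the ranges overlapped. The *Vtn* difference stayed within 1.5-fold, and the log2 fold was −0.15 in the barcodes that also held endothelial transcripts, described below.

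Summed over all members, the same genes gave lower values in SC300, with a log2 fold of −0.67 for *Kcnj8*, −0.74 for *Rgs5*, −0.56 for *Abcc9*, −0.48 for *Pdgfrb*, −0.99 for *Higd1b* and −1.27 for *Vtn*. In that sum, the marker-poor barcodes made up 68.2% of the UMIs in Control and 80.6% in SC300. The direction of these values for *Kcnj8*, *Rgs5*, *Abcc9* and *Pdgfrb* thus depended on which members were summed.

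The pericyte transcripts were also counted in droplets of cell types that should lack them. After thinning each barcode to 2000 UMIs, *Kcnj8* was detected in 88.2% of 17 Control and 85.7% of 21 SC300 marker-rich barcodes, with 7 and 4 shallower barcodes left out. Without thinning the shares were 83.3% and 88.0%. In microglia, which should lack the gene, 0 of 494 Control and 0 of 480 SC300 barcodes held a *Kcnj8* UMI at a median of 7266 and 7849.5 UMIs, which allows a share of up to 0.607% and 0.625%. The microglia rule refused barcodes with 2 or more of a list that held *Kcnj8*, *Abcc9* and *Higd1b*, so this low share was partly set by the rule. Outside that list, *Pdgfrb* was detected in 0.607% of Control and 2.29% of SC300 microglia. The shares were 1.82% and 1.25% for *Vtn* and 0.405% and 0.625% for *Rgs5*. Endothelial barcodes held *Rgs5* at 97.7 and 87.5 CPM, and 16 of them in each library were also co-detected, while 1 in Control and 2 in SC300 were mural members. Stromal barcodes, defined by fibroblast genes, held *Vtn* at 2908 and 4272 CPM.

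**Figure D2:**
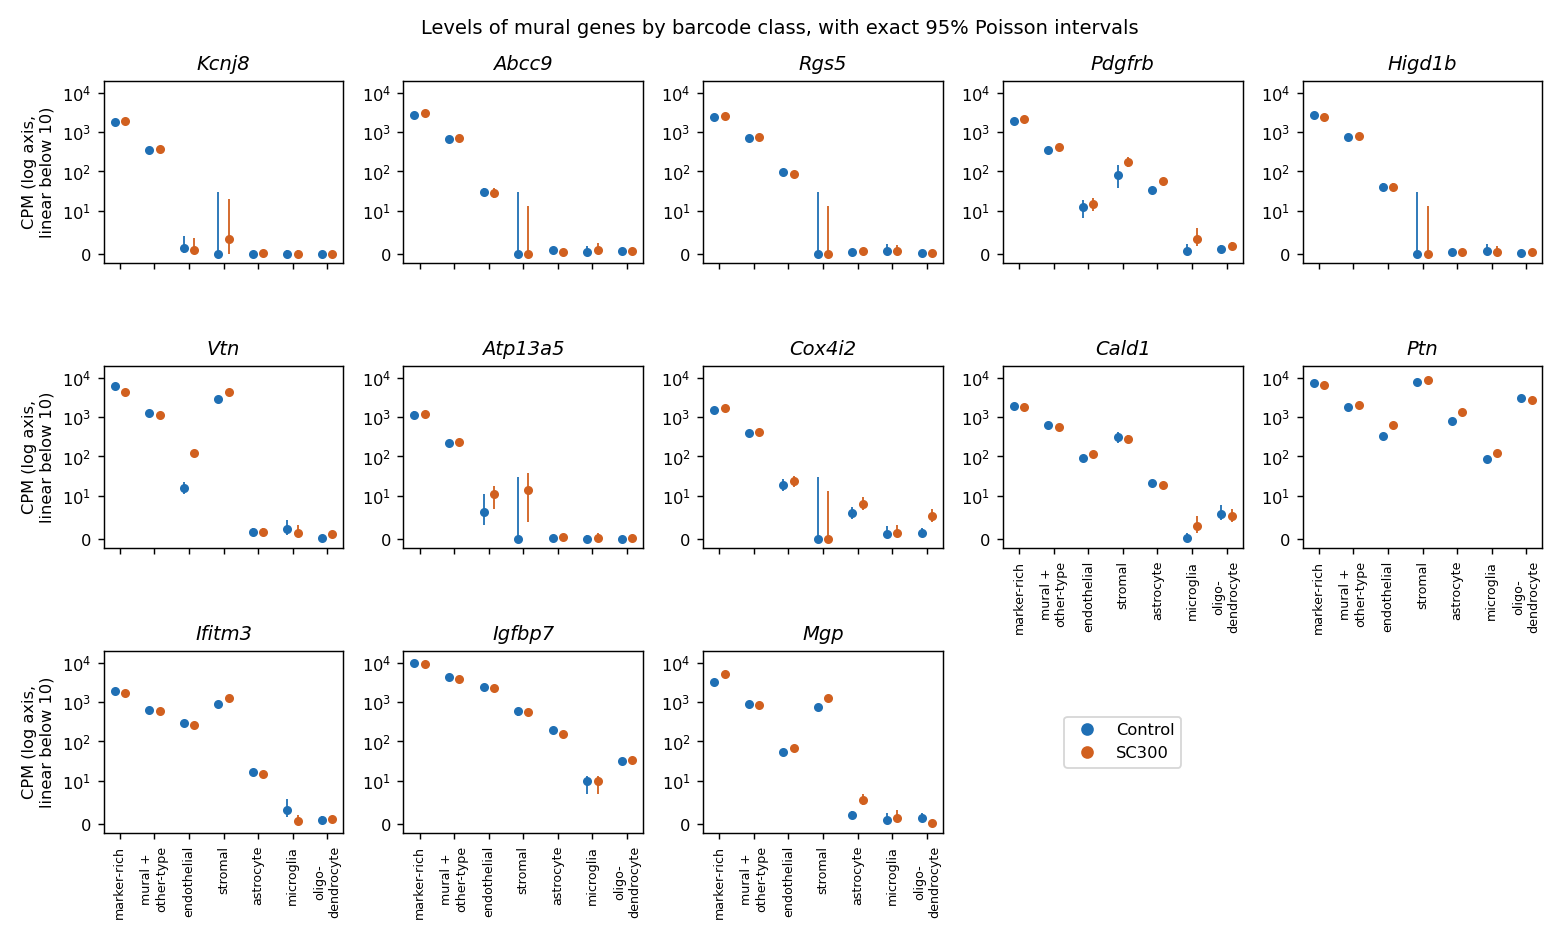
Levels in CPM (log axis, linear below 10) of 13 mural genes in the marker-rich mural, co-detected, endothelial, stromal, astrocyte, microglia and oligodendrocyte barcodes of Control and SC300, each point being the sum over the barcodes of a class in a library and each bar its exact 95% Poisson interval. The channel genes *Kcnj8* and *Abcc9* stood highest in the mural barcodes in both libraries. Both helped to choose the mural barcodes and were among the refused markers of the endothelial, astrocyte, microglia and oligodendrocyte rules. This order was therefore partly set by the rules.

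Several genes outside the rule marked the same barcodes. Because these genes helped to describe cells already picked by correlated markers, their folds are a description with no test. *Atp13a5*, a P-type ATPase of brain pericytes, was at 1157 CPM (Control) and 1218 CPM (SC300), and its level in the marker-rich barcodes stood 5.71 log2 units above that in all other kept barcodes, with both libraries pooled. It was detected in 18 of 24 Control and 20 of 25 SC300 barcodes. *Mgp*, an inhibitor of calcification, stood 5.40 log2 units above the other barcodes and *Cox4i2*, an oxygen-responsive subunit of cytochrome c oxidase, stood 5.04 above.

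The actin-binding gene *Cald1* stood 4.58 log2 units above the other barcodes, the interferon-inducible *Ifitm3* 4.46, the insulin-like growth factor binding protein gene *Igfbp7* 4.03, the basement membrane collagen *Col4a1* 3.87 and the growth factor *Ptn* (pleiotrophin) 2.46. Over all members, the 15 genes with the largest such fold also included *Tagln*, *Sncg*, *Synm*, *Myl9*, *Prss23* and *Rarres2*, which a few deep or contractile barcodes can raise. *Igfbp7* was also abundant in endothelial barcodes, at 2435 and 2273 CPM. Among the 24 matched pericyte genes outside the rule, 22 were detected in marker-rich barcodes, and 7 reached the 100 UMIs, both libraries summed, that were needed for a ratio. *Cspg4* did so only through SC300, so nothing is read from their count. Of these 7, 1 was past 1.5-fold higher in SC300, 0 were past 1.5-fold lower and 6 lay within it, with a median log2 fold of 0.07, the same as the 0.07 over all 214 genes with enough UMIs, of which 5.61% were higher and 4.21% lower.

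The gene past 1.5-fold was *Cspg4*, which encodes the NG2 proteoglycan of the pericyte surface. It had 41 Control and 89 SC300 UMIs, a log2 fold of 0.77 (0.22 to 1.34), and was detected in 15 of 24 Control and 22 of 25 SC300 barcodes. The interval came only from UMI counts, and the barcodes of the libraries overlapped at 0, 1 and 7 UMIs per barcode in Control (lowest, median and highest) and 0, 2 and 15 in SC300. *Anpep*, the surface aminopeptidase CD13, had 16 and 39 UMIs, below the minimum for a ratio call, with a log2 fold of 0.93 (0.06 to 1.87). *Foxs1*, a transcription factor of mural cells, had 53 and 51 UMIs and a log2 fold of −0.41 (−0.99 to 0.17), and *Mcam*, an adhesion molecule of the vessel wall, had 40 and 73 UMIs and 0.51 (−0.06 to 1.11). *Notch3*, the Notch receptor of mural cells, was sparse, with 8 and 6 UMIs.

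Most barcodes with mural markers in this tissue also held endothelial transcripts and were excluded by the rule. At least 3 mural markers were detected in 294 kept Control and 316 kept SC300 barcodes, and the mural members were 11.2% (7.85 to 15.4) and 10.4% (7.30 to 14.4) of them. The other 261 and 283 barcodes held at least 2 markers of other types, which were the endothelial tight junction gene *Cldn5* and the endothelial transporter *Slco1a4* in 260 and 281. These co-detected barcodes were deeper, with a median of 13065 and 15907 UMIs, and held a median of 70 and 88 mural marker UMIs beside 134 and 154 UMIs of 5 endothelial markers. A median of 66 and 79 UMIs came from *Cldn5* alone.

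Endothelial RNA was the larger part in most of them: mural UMIs outnumbered endothelial UMIs in 35 of 261 and 45 of 283 co-detected barcodes. After thinning to 2000 UMIs, 73.6% and 69.9% of co-detected barcodes still had at least 2 markers of other types. Barcodes that were endothelial by their own rule held a median of 1 mural marker UMI in each library. That rule refused barcodes with 2 or more of a list that held *Kcnj8*, *Abcc9* and *Higd1b*, so this low count was partly set by it. Scrublet called 11 of 261 and 8 of 283 co-detected barcodes doublets, and whether the others were joined cells or fragments of vessel was not tested.

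**Figure D3:**
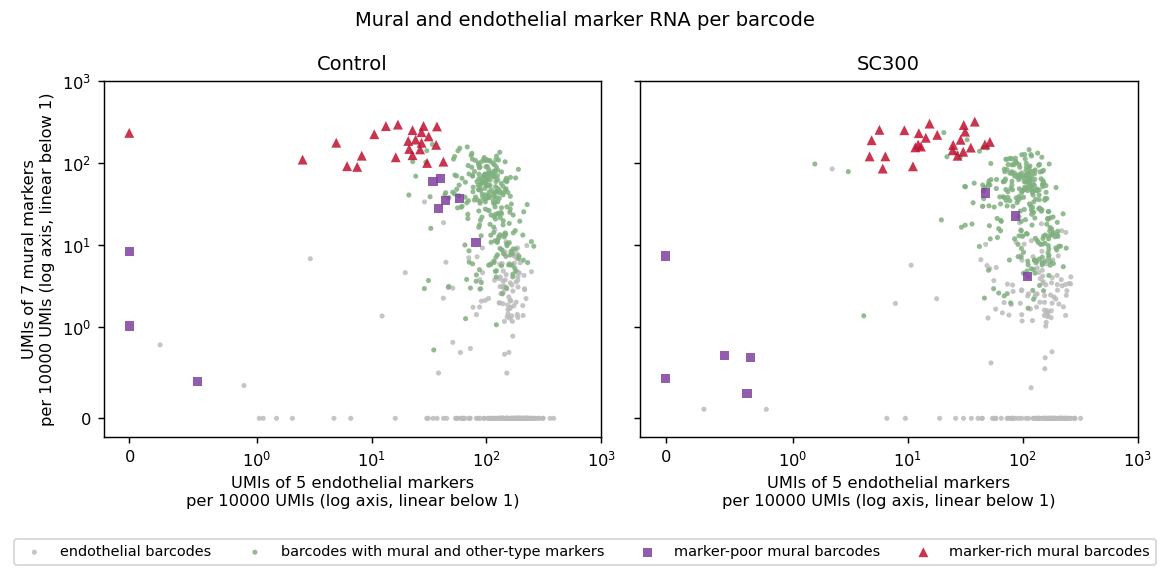
Mural marker UMIs per 10000 (y axis) against endothelial marker UMIs per 10000 (x axis) for kept barcodes of Control and SC300, colored by marker-rich mural, marker-poor mural, co-detected (mural and other-type markers) and endothelial barcodes. Both axes are on a log scale, linear below 1. The co-detected barcodes lay between the mural and the endothelial barcodes and carried both sets of transcripts. The rules of these classes used mural and endothelial markers, so the positions are a description.

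*Acta2* and *Myh11* were found in few mural barcodes. At least 10 UMIs of *Acta2* plus *Myh11* were present in 0 of 33 Control mural barcodes, for which a bound of 3 counts allows a share of up to 9.09%, and in 2 of 33 SC300 mural barcodes (6.06%, 0.743 to 20.2). No member held 5 to 19 such UMIs, 2 Control and 7 SC300 barcodes held 1, and 1 SC300 barcode held 2. With 1 library per group the shares were not compared. Other contractile genes were detected more widely: in marker-rich barcodes *Myl9*, a myosin light chain, had a UMI in 18 of 24 Control and 23 of 25 SC300 barcodes and *Tpm2*, a tropomyosin, in 13 of 24 Control and 17 of 25 SC300 barcodes.

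The first of the SC300 contractile barcodes held 72 *Acta2*, 67 *Myh11*, 182 *Tagln*, 54 *Tpm1* and 46 *Tpm2* UMIs among 8288 in all, with 0 UMIs of *Kcnj8* and *Abcc9*. The second held 19 *Acta2*, 6 *Myh11* and 24 *Tagln* UMIs among 3617, again with 0 UMIs of both channel genes. Neither held a UMI of the 6 markers of other types that the rule used. They held 5 and 4 UMIs of the 5 endothelial markers counted in the co-detected barcodes. The longer endothelial marker list was at 13.3 and 27.6 UMIs per 10000 in them. Of the other markers, the first held 2 *Rgs5*, 1 *Vtn*, 1 *Pdgfrb* and 0 *Higd1b* UMIs, whereas the second held 9 *Rgs5*, 7 *Vtn*, 7 *Pdgfrb* and 4 *Higd1b* UMIs. A comparison of smooth muscle between Control and SC300 was not possible with 0 against 2.

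In the co-detected barcodes, 8 of 261 Control (3.07%, 1.33 to 5.95) and 6 of 283 SC300 barcodes (2.12%, 0.782 to 4.56) passed the same limit, with 4 and 8 barcodes of 5 to 19 UMIs near it. Those past it were deeper, with a median of 26104 and 53351 UMIs against 12922 and 15663, so the limit in absolute UMIs favored deep barcodes. Outside these sets, 0 kept barcodes with under 3 mural markers had 10 or more such UMIs.

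Several contractile genes other than *Acta2* and *Myh11* stood higher in the co-detected barcodes past the limit, in both libraries. The log2 fold of high over low barcodes was 7.68 in Control and 5.28 in SC300 for *Tagln*, 4.12 in Control and 6.03 in SC300 for *Nexn*, an actin filament protein, and 3.43 in Control and 1.61 in SC300 for desmin (*Des*). It was 2.50 in Control and 1.56 in SC300 for the tropomyosin *Tpm2*, 2.04 in Control and 1.27 in SC300 for the myosin light chain *Myl9* and 1.48 in Control and 1.65 in SC300 for *Mylk*, the kinase that phosphorylates it. Others of the list did not stand higher in both libraries, with −0.80 in Control and −2.12 in SC300 for the LIM-domain gene *Csrp2*, −0.29 in Control and −0.26 in SC300 for smoothelin (*Smtn*), −0.09 in Control and 0.12 in SC300 for the actinin *Actn1* and 0.36 in Control and −0.03 in SC300 for the light chain *Myl6*. The channel genes were lower in the same barcodes, with −1.13 in Control and −0.96 in SC300 for *Kcnj8* and −0.96 in Control and −1.07 in SC300 for *Abcc9*, and *Atp13a5* had −2.32 in Control and −1.96 in SC300. *Pdgfrb*, shared by both kinds of mural cell, was within 1 log2 unit at 0.56 in Control and 0.78 in SC300, and *Rgs5* was at 0.52 in Control and 0.00 in SC300. The genes named here were chosen after their values were seen.

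**Figure D4:**
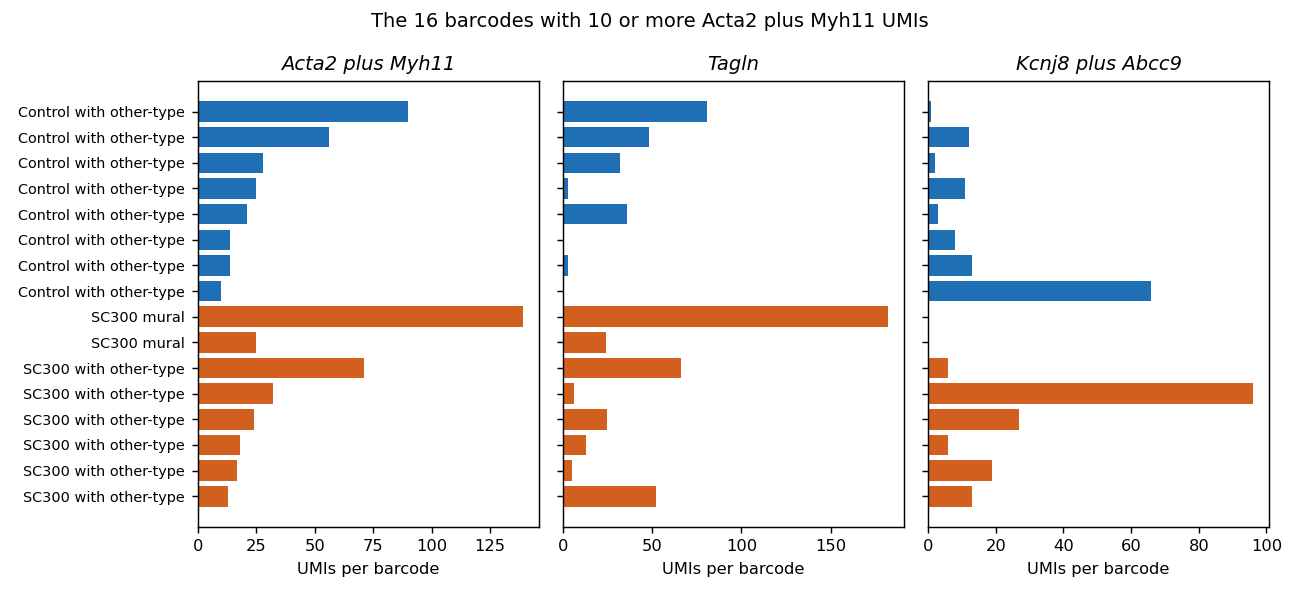
Bars give the UMIs per barcode of *Acta2* plus *Myh11*, of *Tagln* and of *Kcnj8* plus *Abcc9* in the 16 mural and co-detected barcodes of Control and SC300 with at least 10 *Acta2* plus *Myh11* UMIs. The 2 mural barcodes, both from SC300, held *Tagln* without *Kcnj8* or *Abcc9*. Most co-detected barcodes held a mixture, and some in Control held the channel genes without *Tagln*.

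Genes of the contractile apparatus are known targets of serum response factor (encoded by *Srf*), which binds the CArG box, and the start-site regions of the list were searched for it because its members were detected together. The motif searched was CC, then 6 letters that are each A or T, then GG, on both strands, in RefSeq windows of the GRCr8 build from 250 bases before to 50 after each start. It was found in 2 of 33 windows of the contractile list (31 of its 39 genes had an entry), or 6.06%, and in 548 of 33469 windows of all genes, or 1.64%. The 2 windows belong to *Cnn2*, an actin-binding calponin, and to *Srf* itself, and *Acta2*, whose transcripts defined the split, had no exact match and 2 near matches with 1 of the 10 letters different. A near match was present in 30.3% of the contractile windows and 21.3% of all windows, and at least 2 in 15.2% and 3.80%. The stretches are shown 5′ to 3′ on the strand of the gene, with the boxes of *Cnn2* and *Srf* and the near matches of *Acta2* in capitals. A match is a description of letters and not evidence of binding.
*Acta2*, chr1:241172504-241172653, minus strand: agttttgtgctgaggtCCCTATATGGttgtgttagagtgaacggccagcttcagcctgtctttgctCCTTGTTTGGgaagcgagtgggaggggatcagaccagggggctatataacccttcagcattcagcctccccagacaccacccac
*Cnn2*, chr7:10370313-10370412, minus strand: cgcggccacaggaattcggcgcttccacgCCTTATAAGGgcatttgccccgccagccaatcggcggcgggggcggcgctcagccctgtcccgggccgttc
*Srf*, chr9:21923976-21924075, plus strand: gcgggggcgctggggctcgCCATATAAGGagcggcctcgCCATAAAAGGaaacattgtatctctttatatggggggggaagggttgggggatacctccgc

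The *Acta2* near matches begin 134 and 84 bases before the start site, the *Cnn2* box 71 and the *Srf* boxes 81 and 61 bases before it. In the marker-rich barcodes *Cnn2* had 1 Control and 0 SC300 UMIs, and *Srf* had 6 and 4 UMIs. Both genes with exact boxes were barely detected.

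Summed over all members, SC300 and Control differed past 1.5-fold in many genes. Among 1177 genes with at least 100 UMIs, 159 (13.5%) were past 1.5-fold higher and 152 (12.9%) past 1.5-fold lower in SC300, and 71 and 59 of these reached 100 UMIs only through the library where they were higher. When CPM was taken over the total without mitochondrial, haemoglobin and ribosomal protein genes, the split was 222 and 113. For all 159 higher genes and 94 of the 152 lower genes, 3 barcodes held more than 50% of the gene's UMIs in the library where it was higher. The deepest barcodes also held most UMIs of all genes together: 3 Control and 4 SC300 barcodes carried 58.0% and 71.9% of the UMIs of all members. The 3 barcodes with the most UMIs of each named gene were then left out. Of 49 named genes that kept UMIs above a low floor, well under 100, 36 stayed within the counting interval of the value over all members. Another 13 moved out of it, and 0 of those past 1.5-fold over all members turned direction. Genes held almost wholly by 3 barcodes dropped out of this count.

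Most of the genes highest in SC300 are known from neurons, oligodendrocytes and other glia rather than mural cells. They included *Prph*, a neuronal intermediate filament (0 and 189 UMIs) and the GABA-synthesizing enzyme *Gad1* (9 and 149 UMIs), both from neurons, and the myelin gene *Cldn11* (2 and 191 UMIs). *Tagln* (42 and 506 UMIs) and *Sncg* (17 and 267 UMIs), both of the contractile list, were also among the 10, with *Apod*, *Ptgds* and *Tubb4a*. In SC300, 92.0% to 100% of the UMIs of each of these genes came from 3 barcodes. For *Tagln*, 35 Control and 281 SC300 UMIs lay in 1 marker-poor barcode of each library, each with 1 *Acta2* plus *Myh11* UMI. For *Sncg*, 1 SC300 barcode held 230 UMIs, and the contractile SC300 barcodes held 37 and 0. In marker-rich barcodes, *Prph* was at 0 UMIs in both libraries and *Cldn11* had 2 and 1 UMIs.

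The genes lowest in SC300 among all members held a similar mixture. The cilium gene *Dnah12* had 100 Control and 17 SC300 UMIs, of which 82 Control UMIs lay in 1 barcode, and it was at 0 in the marker-rich barcodes of both libraries. *Terf2ip* and the tubulin *Tubb4b* were likewise held by few barcodes, with at most 66 and 197 Control UMIs in a single barcode. The fibrillar collagen *Col3a1*, the interferon-inducible *Ifi27*, the phospholipid transfer protein *Pltp*, *Rarres2* (chemerin) and the heat shock gene *Hspa1b* were lower within the marker-rich barcodes. So were *Cpe*, a prohormone-processing enzyme, and LOC103694857, which is in the erythroid list, both below the UMI minimum there. *Col3a1*, *Ifi27* and *Pltp* reached that minimum only through Control. The marker-rich barcodes are a part of the members, so these values are not separate support. For *Col3a1*, 112 of 114 Control and 40 of 46 SC300 UMIs lay in them.

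Within the marker-rich barcodes, 214 genes had at least 100 UMIs, of which 12 (5.61%) were past 1.5-fold higher and 9 (4.21%) past 1.5-fold lower in SC300. Of these, 7 and 4 reached 100 UMIs only through the library where they were higher, so that they had to differ to be counted. By the same measure, 3 barcodes held more than 50% of the UMIs for 6 of the 12 higher genes and 0 of the 9 lower genes. Without the 2 contractile SC300 barcodes, 182 genes had enough UMIs, with 5 (2.75%) higher and 7 (3.85%) lower. With a lower limit of 20 marker UMIs per 10000, also set after the values were seen, 253 genes had enough UMIs, with 17 (6.72%) higher and 8 (3.16%) lower. Without the contractile barcodes, the 5 higher genes were *Mgp*, *Itgb1*, *Rps9*, *Cspg4* and *Zdhhc1*.

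*Col3a1*, collagen of the vessel adventitia, had the lowest log2 fold of the 214 genes. It was at 1489 CPM (Control) and 416 CPM (SC300), a log2 fold of −1.84 (−2.40 to −1.31), and was detected in 20 of 24 Control and 15 of 25 SC300 barcodes. The barcodes held 0, 3.5 and 18 UMIs per barcode in Control (lowest, median and highest) and 0, 1 and 8 in SC300, and their ranges overlapped. In the co-detected barcodes the log2 fold was −0.18 and in stromal barcodes, where *Col3a1* is abundant, −0.04, so the gap was smaller outside the mural barcodes. It reached the UMI minimum only through Control. Of the other fibroblast markers, *Dcn* and *Lum* were at 0 UMIs in the marker-rich barcodes of both libraries and *Col1a1* had 1 and 0 UMIs, whereas *Mgp*, the most abundant, had 250 and 504 UMIs.

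Of the matrix and basement membrane list, 47 of 56 matched genes were detected in marker-rich barcodes and 9 had enough UMIs, with 2 higher, 1 lower (*Col3a1*) and 6 within 1.5-fold, and a median log2 fold of 0.15. Over all genes 5.61% were higher and 4.21% lower, with a median of 0.07. *Mgp* was one of the higher genes, at 3325 CPM (Control) and 5248 CPM (SC300), a log2 fold of 0.66 (0.44 to 0.88), and single barcodes overlapped, with 1, 8.5 and 46 UMIs per barcode in Control (lowest, median and highest) and 0, 14 and 132 in SC300. A single SC300 barcode held 132 of the 504 SC300 UMIs of *Mgp*, and the call past 1.5-fold depended on that barcode. The log2 fold of *Mgp* was −0.10 in co-detected barcodes, where the direction differed. *Itgb1*, the integrin subunit by which mural cells hold the basement membrane, was at 625 and 968 CPM with 0.63 (0.11 to 1.17). The basement membrane collagen *Col4a1* (0.28, −0.07 to 0.64) and the matricellular *Sparc* (0.15, −0.04 to 0.33) had intervals that included 0.

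Of the contractile list, 9 genes reached 100 UMIs, some of them mainly through SC300, so nothing is read from how many were higher. *Tagln* had 7 Control and 206 SC300 UMIs, with all SC300 UMIs in the contractile barcodes. *Tpm1* (0.87, 0.23 to 1.54) was at −1.37 and *Myl9* (0.69, 0.25 to 1.15) at −0.14 without those 2 barcodes. *Tpm2* went from 1.83 to 0.84. *Acta2* had 0 and 92 UMIs and *Myh11* 0 and 75 UMIs, a log2 fold of at least 4.59 and 4.29 against a floor of 3 UMIs, and 1 *Acta2* and 2 *Myh11* UMIs lay outside the contractile barcodes. Of the 1760 UMIs of this list in SC300, 809 and 130 lay in those 2 barcodes, and Control had 747.

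*Crip1*, a small LIM-domain gene of smooth muscle and other cells, had 2 Control and 133 SC300 UMIs, a log2 fold of 5.70 (3.82 to 8.76), and reached the UMI minimum only through SC300. It was detected in 2 of 24 Control and 15 of 25 SC300 barcodes. Without the 2 contractile barcodes it still had 2 and 45 UMIs, a log2 fold of 4.33. In co-detected barcodes it was detected widely in both libraries, with 862 and 1320 UMIs and a log2 fold of 0.27 (0.14 to 0.39), and stromal and endothelial barcodes had log2 folds of 1.16 and 1.02. The palmitoyltransferase gene *Zdhhc1* had a log2 fold of 0.91 (0.28 to 1.58) in marker-rich barcodes, where it too reached the minimum only through SC300, and −0.03 in co-detected barcodes.

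**Figure D5:**
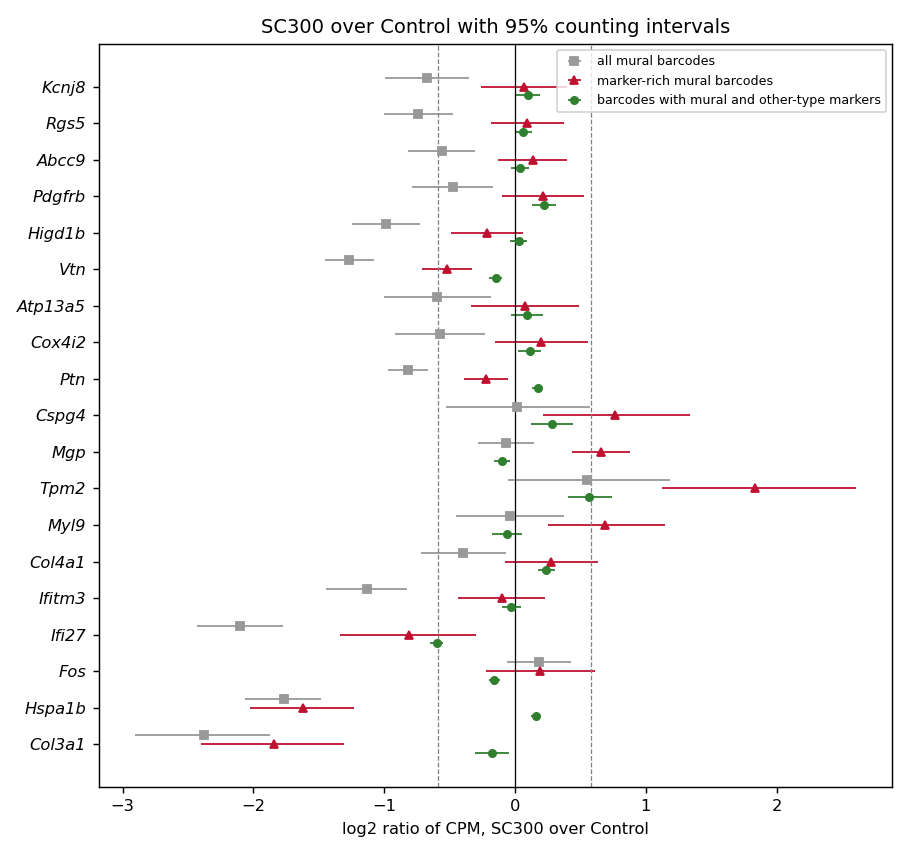
Log2 fold of SC300 over Control for mural genes in all mural members, marker-rich barcodes and co-detected barcodes, with bars for the 95% conditional binomial interval of counting error and dashed lines at 1.5-fold. The 6 rule genes plotted lay below 0 over all members and nearer to 0 in marker-rich and co-detected barcodes, and *Vtn* stayed at −0.52 in the marker-rich barcodes.

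Stress and immediate-early genes, which respond to tissue dissociation, were mixed. In marker-rich barcodes 34 of 38 matched genes were detected and 4 reached 100 UMIs, of which 0 were higher and 1 lower, against 4.21% lower over all genes, with a median of −0.04 against 0.07. *Hspa1b*, an inducible heat shock protein gene, was at 2434 CPM (Control) and 791 CPM (SC300), a log2 fold of −1.62 (−2.03 to −1.23), but it was found in only 12 of 24 Control and 8 of 25 SC300 barcodes and was at 0.16 in co-detected barcodes. *Jun* (64 and 29 UMIs) and *Jund* (57 and 17 UMIs), subunits of the AP-1 factor, had log2 folds of −1.49 (−2.18 to −0.84) and −2.10 (−2.97 to −1.30) below the UMI minimum, and *Cebpd*, a stress-responsive transcription factor, had −1.64 (−2.58 to −0.77). *Fos* had 0.19 (−0.22 to 0.61), and −0.89 without the contractile barcodes. The co-detected barcodes gave 0 higher and 6 lower among 32 such genes, with a median of −0.33 against −0.01 over all genes, of which 2.01% were lower, and *Jund* and *Dusp1*, a phosphatase of the MAP kinases, were at −0.69 and −0.65. Markers of other types were lower there too, 8 of 12 for oligodendrocytes (median −1.54) and 5 of 9 for microglia and macrophages (median −0.64). Their part was not tested.

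Of 44 matched genes of MHC class I and the interferon response, 29 were detected in marker-rich barcodes and 4 reached the minimum, with 0 higher, 1 lower (*Ifi27*, −0.81, −1.34 to −0.30, at the minimum only through Control) and 3 within 1.5-fold, against 5.61% higher and 4.21% lower over all genes, and a median of −0.25 against 0.07. *B2m*, the light chain of MHC class I, had −0.37 (−0.69 to −0.05). The class I gene *RT1-A1* had 5 and 0 UMIs and *RT1-T24-4* 5 and 0 UMIs in marker-rich barcodes. In co-detected barcodes *RT1-A1* had 589 Control and 37 SC300 UMIs, a log2 fold of −4.34 (−4.86 to −3.86), and *RT1-T24-4* had −3.14 (−3.40 to −2.90). The same direction for *RT1-A1* was found in endothelial barcodes (−4.31), astrocytes (−5.10) and microglia (−4.68), so it was not particular to mural barcodes. The RT1 genes are near-identical copies whose reads can be divided among them, so their separate levels are uncertain.

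In the marker-rich barcodes, the solute carriers and pumps with enough UMIs for a ratio were within 1.5-fold. Without the rule gene *Abcc9*, there were 7 such genes, with 0 higher, 0 lower and 7 within 1.5-fold. Over all genes in these barcodes 5.61% were higher and 4.21% lower, so nothing is read from this count. The median was 0.05 against 0.07 over all genes. Below the minimum, the GABA transporter gene *Slc6a13* had 36 and 16 UMIs with a log2 fold of −1.52 (−2.47 to −0.64) and *Slc30a10*, a manganese exporter, 53 and 19 UMIs with −1.83 (−2.67 to −1.05). Both were chosen after their values were seen, and in co-detected barcodes they were at −0.52 and −0.30.

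Among channels, receptors and second messengers of vessel tone, 2 genes other than the rule genes *Kcnj8*, *Abcc9* and *Rgs5* had enough UMIs in marker-rich barcodes, both within 1.5-fold. *Gucy1b1*, a subunit of the nitric oxide receptor, had 0.06 (−0.52 to 0.65), and *Rgs4*, an inhibitor of G protein signaling, had −0.08 (−0.55 to 0.40). *Pth1r*, the parathyroid hormone receptor, had 94 and 85 UMIs and a log2 fold of −0.50 (−0.94 to −0.06), within 1.5-fold. The Pdgf, Notch, Tgf-beta and angiopoietin list, without the rule gene *Pdgfrb*, gave 0 higher, 0 lower and 3 within, with a median of −0.10 against 0.07 over all genes. Of all genes in marker-rich barcodes 5.61% were higher and 4.21% lower, so nothing is read from the counts of these lists. Among genes of oxygen response, *Epas1*, which encodes the hypoxia-inducible factor HIF-2-alpha, had 0.42 (−0.02 to 0.87).

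Receptors for estrogen and progesterone were not seen in the marker-rich barcodes. *Esr1* (estrogen receptor alpha), *Esr2* (beta), *Gper1* (the membrane estrogen receptor) and *Pgr* (the progesterone receptor) were at 0 UMIs in both libraries, which allows a level of up to 39.9 CPM in Control and 31.2 CPM in SC300 and a share of barcodes with a UMI of up to 12.5% and 12%. Over all members, *Esr1* had 1 UMI, in Control. Of 29 matched genes of the steroid receptor and cofactor list, 16 were detected in marker-rich barcodes and 0 reached the minimum for a ratio. The largest count belonged to *Fkbp4*, a chaperone of steroid receptors, with 16 Control and 24 SC300 UMIs. In the deeper co-detected barcodes, 4476014 and 5693413 UMIs held 0 and 1 *Esr1* UMIs.

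Of the remaining lists in marker-rich barcodes, 9 mitochondrially encoded genes of oxidative phosphorylation were all within 1.5-fold (median 0.27), as were 11 nuclear genes of the same pathway and of hypoxia, the rule gene *Higd1b* left out (median 0.04). All genes in these barcodes had a median of 0.07, with 5.61% higher and 4.21% lower, so nothing is read from these counts. The mitochondrial share of UMIs was 12.0% in Control and 14.3% in SC300. Of the chemokine, cytokine and complement list only *Ptn* reached the minimum (−0.22, −0.39 to −0.06). The clock and cell division lists had 0 genes with enough UMIs.

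The longer marker lists of other types were summed in the same barcodes. The microglia and macrophage list summed to 1 Control and 4 SC300 UMIs with 13 of 15 genes at 0, including *Csf1r*, *Cx3cr1*, *Tmem119* and *P2ry12*. The neuron list summed to 14 and 12 UMIs, and the oligodendrocyte list to 108 and 63 with *Mbp* the most abundant and *Mog* at 0. The astrocyte list had 172 and 178 UMIs, led by *Atp1b2*, and the endothelial list 327 and 362, led by *Itm2a*. The stromal list had 419 and 591, led by *Mgp*. Their part in the results above was not tested.

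Haemoglobin transcripts, which come from red blood cells, had a lower median per barcode in SC300 in the 4 sets given here. The median was 16.9 UMIs per 10000 in Control and 2.02 in SC300 marker-rich barcodes, 5.16 and 1.61 in co-detected barcodes, 8.46 and 1.80 in endothelial barcodes and 5.73 and 1.35 in all other barcodes. The summed level did not follow the median in the co-detected set, where 28 Control and 34 SC300 barcodes had over 1000 per 10000 and the erythroid list summed to 73361 and 75934 CPM. LOC103694857, in the erythroid list, had 67 Control and 13 SC300 UMIs in marker-rich barcodes, a log2 fold of −2.72 (−3.70 to −1.85). Its part in the lower genes was not tested.

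The co-detected barcodes gave a deeper view of the vessel wall, with the limit that mural and endothelial RNA cannot be told apart in them. They also held RNA of other types: the oligodendrocyte list summed to 8735 Control and 3790 SC300 UMIs, with 8 of 12 genes lower and a median of −1.54, and 5 of 9 microglia and macrophage genes were lower, with a median of −0.64. The part of these types in the co-detected values above and below was not tested. Of 7617 genes with at least 100 UMIs, 148 (1.94%) were past 1.5-fold higher and 153 (2.01%) past 1.5-fold lower in SC300, of which 58 and 46 reached the minimum only through the library where they were higher. In endothelial barcodes the same limits called 295 (6.01%) and 236 (4.81%) of 4908 genes. All 21 pericyte genes outside the rule with enough UMIs were within 1.5-fold, with a median of 0.09. The rule genes lay between −0.15 for *Vtn* and 0.22 for *Pdgfrb*, apart from the sparse *Myh11* (48 and 27 UMIs, −1.18, −1.91 to −0.47).

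Matrix genes leaned higher in SC300 in these barcodes, with 8 higher, 1 lower and 34 within 1.5-fold and a median of 0.21, against −0.01 over all genes, of which 1.94% were higher. Stromal markers moved with them: 3 of 10 were higher and 0 lower, with a median of 0.26, and the kept barcodes held 11 stromal barcodes in Control and 29 in SC300, the part of which was not tested. *Lamb1*, a laminin chain of the basement membrane, had 440 Control and 853 SC300 UMIs and a log2 fold of 0.61 (0.44 to 0.78), and was detected in 158 of 261 Control and 212 of 283 SC300 barcodes. The collagen *Col1a1* (1.05, 0.87 to 1.23) and the proteoglycan *Dcn* (1.22, 0.99 to 1.45), both fibroblast genes, were found in few co-detected barcodes, 17 of 261 Control and 21 of 283 SC300 barcodes for *Col1a1*. In the Pdgf, Notch, Tgf-beta and angiopoietin list, *Pdgfrb* left out, 4 of 41 genes were higher and 0 lower, among them *Angpt2*, which destabilizes vessels (0.76, 0.48 to 1.05), and the growth factor *Igf2* (0.71, 0.59 to 0.83). *Igf2* was also higher in endothelial (3.36) and stromal (0.99) barcodes.

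Of 27 contractile genes, 1 was higher in co-detected barcodes, desmin (0.77, 0.45 to 1.11), and 3 were lower, *Acta2* (−0.62, −0.89 to −0.34), *Actn1* (−0.61, −0.75 to −0.46) and *Sncg* (−0.64, −1.23 to −0.07). Over all genes in these barcodes, 1.94% were higher and 2.01% lower. A single Control barcode held 86 of the 246 Control UMIs of *Acta2*. Of 28 solute carriers and pumps, *Abcc9* left out, 2 were higher and 0 lower, among them *Slc16a1*, a monocarboxylate transporter of brain endothelium (0.80, 0.60 to 1.00). *Isg15*, an interferon-stimulated gene, was at 0.80 (0.62 to 0.98), with −0.49 in endothelial barcodes.

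Of 22 chemokine, cytokine and complement genes, 6 were higher, namely *Ptgs2*, *Icam1*, *Vcam1*, *Cxcl1*, *Ccl2* and *C1r*, and 1 was lower, the complement inhibitor gene *Serping1*. The median of the list was 0.08 against −0.01 over all genes, of which 1.94% were higher. The endothelium also expresses *Icam1* and *Vcam1*, and the source of these transcripts was not tested.

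Among the largest ratios of the co-detected barcodes were genes that also differed in other classes. *Fam111a* had 1 Control and 499 SC300 UMIs and *Cblc* had 132 Control and 2 SC300 UMIs. In microglia, *Fam111a* had 2 and 513 UMIs, and in endothelial barcodes *Cblc* had 66 and 0 UMIs. Genes with an endothelial pattern were *Abcg2*, a drug efflux pump of the barrier (−1.32, −1.41 to −1.22, and −1.53 in endothelial barcodes), and *Nfkbia*, an inhibitor of NF-kappa-B (−1.15, −1.23 to −1.06 and −1.23). *Nfkbia* had 13 and 15 UMIs in marker-rich mural barcodes, a log2 fold of −0.15 (−1.32 to 1.04), and *Abcg2* had 3 and 0 UMIs. These genes were chosen after their values were seen.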

How the data were processed

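The authors deposited a matrix of UMI counts per gene and barcode for each library, made with Cell Ranger 3.0.1 per the labels and an Ensembl 96 transcriptome per the methods. The counts were not normalized, and 32883 genes were listed. The files held 4488 and 4524 barcodes, the larger of the cell numbers in the methods, and 4296 and 4379 had at least 200 genes, which is above the lower cell numbers there. For their analysis the authors kept cells with at least 200 genes and genes found in at least 3 cells, and filters on cells beyond these were not given in the sources used here. Symbols were read from the deposited files, and listed genes without a match were not analysed here. Rule, marker limits and lists were chosen with earlier results of these data known.

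Counts were summed over barcodes per library and given as CPM of the set's total UMIs. Ratios were log2 of SC300 over Control for genes with at least 100 UMIs, called past 1.5-fold, with exact 95% conditional binomial intervals, and shares have Clopper-Pearson intervals. A count of 0 was bounded by 3 UMIs per library. Doublets were called with Scrublet in scanpy 1.11.5 and were kept. Barcodes were thinned to 2000 UMIs where depths differed. The steps were tested on simulated counts. Groups came from sample titles, and n was 1 library per group, which allows no test. Library depth was 49197708 and 53277487 UMIs in kept barcodes, whereas the mural barcodes held 236311 and 495632, which limits ratios to abundant genes.

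Named genes were the rule genes, the 10 highest and 10 lowest by the counting bound nearest to 0 (also in marker-rich barcodes), the 15 with the largest mural fold, and, within each list, up to 6 of the most abundant and 4 of the most different. Some items are not reported here, not all of the latter are printed, and others were chosen after their values were seen. Genes of high against low *Acta2* plus *Myh11* barcodes could not be ranked in Control members, where 0 passed, so the co-detected barcodes were used. Alternatives covered limits on mitochondrial share, genes, markers and doublets, thinning, scaling, the UMI minimum and the fold. Promoter windows came from RefSeq, GRCr8, and *Tagln* and *Myh11* had no entry.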

Additional observations from a re-analysis of the deposited data

Results flagged for a closer look

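Barcodes with at least 3 mural markers were also present outside the limits of 200 genes and 30% mitochondrial UMIs, among deposited barcodes that the comparisons did not use. There were 4 such barcodes in Control and 4 in SC300. In each library, 2 of these also had fewer than 2 markers of other types and so met the rest of the rule. No explanation was tested.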

How the results depend on the processing

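No paired analysis was possible because the labels give each group the same single replicate number, so fewer than 2 pairs exist. With 1 pool per group, the spread between animals is unknown, co-detected barcodes mix mural and endothelial RNA, and mural depth limits ratios to abundant genes. Animal, library and treatment cannot be told apart.

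The mural share (0.840% in Control, 0.842% in SC300) was 0.499% and 0.255% with at most 10% mitochondrial UMIs, 2.04% and 1.99% with at least 2 markers, 0.433% and 0.561% with none of the 6 other-type markers, 1.90% and 2.32% after thinning to 2000 UMIs, and 7.48% and 8.06% with no limit on other types, an alternative added after seeing the data. With at most 10% mitochondrial UMIs the share of SC300 members with 10 or more *Acta2* plus *Myh11* UMIs was 0 of 3. Comparing high with low barcodes within the members, with any other limit, was not run because Control had 0 of them.

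The counts past 1.5-fold, 159 higher and 152 lower, were 96 and 87 with at most 20% mitochondrial UMIs, 0 and 3 (of 24 genes) with at most 10%, 40 and 38 with at least 4 markers, 282 and 373 with at least 2, 28 and 29 with none of the 6 other-type markers and 12 and 13 after thinning. They were 12 and 9 with at least 80 marker UMIs per 10000, 17 and 8 with at least 20, 5 and 7 with at least 80 and fewer than 10 *Acta2* plus *Myh11* UMIs, all 3 added after seeing the data, 380 and 453 with a minimum of 50 UMIs, 78 and 59 with 200, and 65 and 54 past 2-fold. Fewer barcodes and genes entered most of these by construction. Among the 55 named genes with enough UMIs, direction was followed only for those past 1.5-fold over all members. It turned for 0 of them without doublets, with the median of ratios and with the total without mitochondrial, haemoglobin and ribosomal protein genes.

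Of the named genes past 1.5-fold over all members, the log2 folds of these changed sign (genes within 1.5-fold there, such as *Abcc9* and *Pdgfrb*, are not listed), and the cause was not tested. With at least 80 marker UMIs per 10000, the ratio turned to 0.0673 for *Kcnj8*, 0.0946 for *Rgs5*, 0.0745 for *Atp13a5*, 0.75 for *Vim* and 0.15 for *Sparc*. With at least 80 and fewer than 10 *Acta2* plus *Myh11* UMIs, the ratio turned to 0.26 for *Kcnj8*, 0.22 for *Rgs5*, −1.38 for *Tagln*, 0.27 for *Atp13a5*, 0.0458 for *Cald1*, 0.25 for *Vim* and 0.18 for *Sparc*. With every barcode weighted alike, the ratio turned to 0.0389 for *Kcnj8*, 0.0686 for *Rgs5*, 0.35 for *Atp13a5*, 0.0508 for *Cald1* and 0.27 for *Vim*. With at most 10% mitochondrial UMIs, the ratio turned to 0.54 for *Rgs5*, 0.26 for *Cald1*, 0.0432 for *Ifitm3*, 0.31 for *Ptn*, 1.41 for *Vim*, 0.85 for *B2m* and 0.20 for *Sparc*. With at most 20% mitochondrial UMIs, *Gad1*, whose 149 SC300 UMIs lay in 1 barcode, turned to a bound of −2.29. This *Gad1* value and the *Tagln* value without contractile barcodes are bounds against the floor of 3 UMIs in SC300.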
